A study of Mus musculus with 10 samples.

Results

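The proteasome genes described here are those on the array whose symbol begins with Psma to Psmg and a number, each read by 1 probe set, the one with the highest mean among those that name a single gene. There were 49 such genes of 18193 genes on the array. They were compared between colon tumours labelled KO and WT, with the inducible genes Psmb8, Psmb9, Psmb10 and Psme1 set beside the other 45. Psme2, the partner of Psme1, was not analysed here, because its probe set also names Psme2b. Psmc3ip and Psme3ip1 match by symbol without being proteasome subunits, and they are kept apart where roles are described.

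The proteasome degrades proteins marked by ubiquitin. Its 20S core is a barrel of alpha and beta rings that holds the cutting sites, and the 19S cap, built of ATPase (Psmc) and non-ATPase (Psmd) subunits, recognises and unfolds the substrates. In cells exposed to interferon-gamma, and at all times in many immune cells, the catalytic beta subunits encoded by Psmb5, Psmb6 and Psmb7 are replaced in new particles by those encoded by Psmb8, Psmb9 and Psmb10. Psme1 and Psme2 encode the PA28 activator, which caps the same particle, and the resulting immunoproteasome supplies peptides for MHC class I molecules.

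The 10 arrays were 5 tumours of mice with the genotype vil-Cre-Bcl9-/-/Bcl9l-/- (KO) and 5 tumours of wild-type mice (WT), all on the mixed background 129SvEv/C57BL/6/DBA/2. The vil-Cre transgene expresses Cre under the villin promoter of the intestinal epithelium, and Bcl9 and Bcl9l are co-factors of beta-catenin in Wnt-driven transcription; whether the WT mice carried Cre is not stated in the sources used here. Mice of both groups, aged 6 to 8 weeks at the start, received 1 dose of dimethylhydrazine at 44 mg/kg, which the body turns into a carcinogen, followed by 7 days of 2% dextran sulfate sodium, an irritant of the colon. The KO tumours came from 3 mice (tumours 2 and 6 from mouse 02, tumours 9 and 11 from mouse 04, tumour 7 from mouse 99), and the WT tumours from 2 mice (tumours 1, 3, 12 and 13 from mouse 72, tumour 8 from mouse 82). Tumours were cut out by laser microdissection and 30 ng of RNA were amplified for each array.

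Values are log2 RMA signals, so a difference of 1 is a 2-fold change. The epithelial marker Epcam averaged 13.59 log2 for KO and 13.58 for WT, so epithelial RNA was present in both groups. The difference between signals of the 3′ and 5′ ends of control transcripts, a sign of RNA quality, ranged from 0.705 to 1.17 in KO and from 0.776 to 1.14 in WT tumours. Unique sample numbers 191 to 229 hold 1 KO and 4 WT tumours and numbers 254 to 258 hold 4 KO and 1 WT, so number range and genotype largely coincide. A lower signal in dissected tissue can mean fewer cells of a type or less RNA per cell, which cannot be told apart here.

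Upstream sequence of the inducible genes Psmb8 and Psmb9 and of the constitutive counterpart Psmb5 is shown first, because the inducible genes moved together. No sequence of Psmb10 is printed, and that of Psme1 is a short stretch after its start. RefSeq (GRCm38.p6) start sites were available for 41 of the 49 genes, and not for Psma8, Psmb1, Psmb2, Psmb7, Psmc3, Psmd3, Psmd7 and Psmg2. Windows from 250 bases before the start to 50 after it were searched on both strands for the interferon-stimulated response element (ISRE, here TTTC repeated after a gap of any 2 bases), the gamma-activated site (GAS, TTCNNNGAA), the CCAAT box and the core of the antioxidant response element (TGANNNNGC). The first 3 sequences are the 250 bases before the start of Psmb8 (chr17:34197945-34198194, plus strand), Psmb9 (chr17:34187331-34187580, minus strand) and Psmb5 (chr14:54617996-54618245, minus strand), with a GAS, an inverted CCAAT box and an antioxidant element match in capitals. Antioxidant letters also occur in Psmb9 at position -60, left in lower case, and in Psmb8 at position 24, past the printed stretch. That match is therefore not particular to Psmb5.
Psmb8: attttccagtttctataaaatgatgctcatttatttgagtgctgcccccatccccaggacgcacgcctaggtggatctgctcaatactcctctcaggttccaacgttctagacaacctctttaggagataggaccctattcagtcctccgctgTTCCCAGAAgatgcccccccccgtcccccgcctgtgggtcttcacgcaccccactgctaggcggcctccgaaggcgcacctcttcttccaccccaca
Psmb9: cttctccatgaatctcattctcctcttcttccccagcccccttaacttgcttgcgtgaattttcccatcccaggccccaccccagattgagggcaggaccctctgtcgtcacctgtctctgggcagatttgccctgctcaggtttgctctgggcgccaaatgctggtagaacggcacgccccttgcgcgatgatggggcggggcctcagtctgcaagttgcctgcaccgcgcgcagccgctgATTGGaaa
Psmb5: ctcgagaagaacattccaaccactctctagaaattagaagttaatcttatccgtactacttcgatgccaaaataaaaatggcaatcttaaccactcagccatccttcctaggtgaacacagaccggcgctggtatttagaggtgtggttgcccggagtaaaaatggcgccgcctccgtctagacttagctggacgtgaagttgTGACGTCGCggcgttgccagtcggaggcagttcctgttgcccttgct

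The ISRE letters occurred in 5 of the 41 genes (12.2%), namely Psme1, Psmb3, Psmd4, Psmd9 and Psmg4, and in 3.44% of all 32851 windows of that length. For each motif a member counted if any of its windows matched (44 windows for the 41 genes). The share of all windows is per window, so the units differ. GAS letters occurred in 3 of the 41 (7.32%), Psmb8, Psmd2 and Psmg1, and in 8.30% of all windows. The ISRE matches of Psmd4 and Psmd9, which differed by 0.01 and -0.14 log2 between KO and WT, are not printed. Of the 5, only Psme1 passed the test described below. The ISRE matches of Psme1 (chr14:55578493-55578522, 10 bases after the start), Psmb3 (chr11:97703261-97703290, before the start) and Psmg4 (chr13:34162969-34162998, 16 bases after it, on the reverse strand) are shown in capitals, all windows being on the plus strand.
Psme1: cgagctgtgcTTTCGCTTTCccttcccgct
Psmb3: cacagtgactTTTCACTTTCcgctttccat
Psmg4: gcgcgcatctGAAAGTGAAAgagcgttccg

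Neither motif for interferon signalling was found in the windows of Psmb9 and Psmb10, which says only that these letters are not in that stretch. Antioxidant element letters occurred in 24 of the 41 genes (58.5%) and in 41.3% of all windows, and CCAAT in 16 (39.0%) and 37.4%. A match of letters is a description and not a binding site. Psmb9 and Tap1, which encodes a subunit of the class I peptide transporter, lie head to head with starts 226 bases apart, so their windows share 275 bases and most of the sequence printed for Psmb9 also lies upstream of Tap1.

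The inducible catalytic subunits were higher in KO tumours by 3.004-fold to 9.998-fold, whereas no constitutive counterpart passed the test. Psme1 was 1.93-fold higher. Of 43 other members tested, only the alpha-ring gene Psma5 passed, by 1.32-fold, and none was lower past the threshold, where 2.93% of all genes were. All 4 inducible genes measured were thus among the genes that rose, where 4.16% of all 12250 genes tested did so (limma with the mouse as a random block, Benjamini-Hochberg adjusted p under 0.05; 7.09% changed in either direction). The other members, with 1 of 43 (2.33%), lay near or below that share.

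Psmb8 encodes the inducible subunit that takes the chymotrypsin-like site of Psmb5. Its signal was 11.35, 11.97, 12.40, 12.05 and 11.90 log2 in KO tumours 2, 6, 7, 9 and 11, and 8.57, 7.80, 9.24, 9.07 and 8.78 in WT tumours 1, 3, 8, 12 and 13. The groups did not overlap, and the lowest KO tumour stood 2.11 log2 above the highest WT tumour. The fitted difference was 3.23 ± 0.29 log2 (SE), 9.37-fold (adjusted p = 0.000277, limma). A second Psmb8 probe set, with a mean under the level filter, was also higher in every KO tumour than in every WT tumour (6.08 ± 0.31 log2 against 4.75 ± 0.54, SD over 5 tumours per group). With the mean of both probe sets in place of the brighter one the difference was 2.28 log2.

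Psmb9 encodes the counterpart of Psmb6, the caspase-like site. It was at 11.42, 12.25, 12.57, 12.46 and 12.37 log2 in KO tumours 2, 6, 7, 9 and 11 and at 8.91, 8.18, 9.32, 9.35 and 8.66 in WT tumours 1, 3, 8, 12 and 13. KO tumour 2 was the low one of its group, and it still lay 2.08 log2 above the highest WT tumour. The difference was 3.32 ± 0.28 log2 (SE), 9.998-fold (adjusted p = 0.000231, limma). By size of difference, Psmb9 ranked 15 and Psmb8 18 from the top among the 12250 genes.

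Psmb10, the counterpart of Psmb7 at the trypsin-like site, had a smaller difference. Its signal was 9.56, 10.08, 10.49, 10.18 and 10.21 log2 in KO tumours 2, 6, 7, 9 and 11, and 8.03, 8.75, 8.58, 8.83 and 8.41 in WT tumours 1, 3, 8, 12 and 13. The groups did not overlap, with KO tumour 2 again lowest. The difference was 1.59 ± 0.20 log2 (SE), 3.004-fold (adjusted p = 0.00151, limma). Its 95% interval of 1.13 to 2.04 log2 lay below those of Psmb8 (2.59 to 3.86) and Psmb9 (2.69 to 3.95), and the difference between these genes was not tested.

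Psme1 encodes the alpha subunit of PA28. It was at 12.005, 12.40, 12.50, 12.29 and 12.24 log2 in KO tumours 2, 6, 7, 9 and 11 and at 11.52, 11.10, 11.49, 11.19 and 11.39 in WT tumours 1, 3, 8, 12 and 13. Groups were separated by 0.48 log2. The difference was 0.95 ± 0.13 log2 (SE; adjusted p = 0.00229, limma), and the gene ranked 455 from the top.

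**Figure D1:**
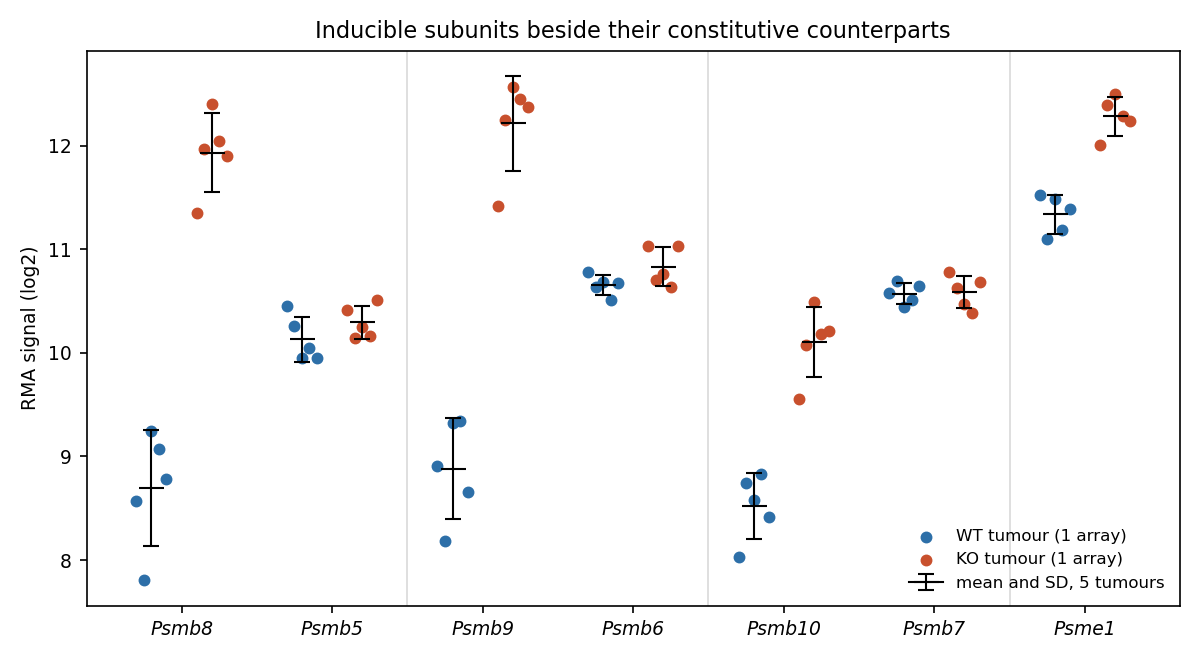
Log2 RMA signal of Psmb8, Psmb9, Psmb10 and Psme1, with the constitutive counterparts Psmb5, Psmb6 and Psmb7 beside the first 3; each point is 1 tumour (blue WT, red KO) and bars give the mean and SD over 5 tumours. Red and blue points are apart for the inducible genes, by 2.11 log2 for Psmb8 and 0.48 log2 for Psme1, and overlap for Psmb5, Psmb6 and Psmb7.

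KO tumour 7 was the highest and KO tumour 2 the lowest KO tumour for Psmb8, Psmb9, Psmb10 and Psme1. Among WT tumours, tumour 3 was lowest for Psmb8, Psmb9 and Psme1, whereas Psmb10 was lowest in tumour 1. The mean over the 4 genes lay 1.73 log2 above its WT mean in KO tumour 2, 2.32 in tumours 6 and 11, 2.38 in tumour 9 and 2.63 in tumour 7. Both tumours of mouse 02, averaged, gave 11.38, those of mouse 04 11.71, and the single tumour of mouse 99 11.99, against 9.28 for mouse 72 and 9.66 for mouse 82. Every mouse of the KO group therefore lay above both WT mice. KO tumour 2 also had the highest 3′ minus 5′ difference of all tumours, at 1.17. WT tumour 3 had the lowest means of leukocyte and myeloid markers, at -0.60 and -0.73 log2 from the WT mean. Whether these go with the inducible signal was not tested.

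The inducible genes were higher in KO tumours within each range of sample numbers. Psmb8 was higher by 3.68 log2 in the lower range (1 KO tumour against 4 WT) and by 3.25 in the upper range (4 KO against 1 WT), and Psmb9 by 3.69 and 3.22. Psmb10 differed by 1.85 and 1.98 and Psme1 by 1.21 and 0.71. Fits confined to 1 range, which hold a single tumour in a group and assume that it varies like the others, called 0 of the 4 in the lower range, where 0.245% of all genes were called, and 3 of the 4 in the upper range, where 6.02% of all genes were called and Psme1 was lost (limma, adjusted p = 0.122; 0.00132 to 0.156 over its alternatives). Without mouse 72, which leaves 1 WT tumour and 2.35% of all genes called, Psmb8 and Psmb9 passed. Psmb10 (1.55 log2, adjusted p = 0.0749; 0.000839 to 0.0749 over its alternatives) and Psme1 (0.81 log2, 0.156) did not pass there (limma). Over 1 mean per mouse all 4 passed, where 195 of 12250 genes were called higher and 3.17% were called in either direction. The other shares of called genes in this paragraph are also for either direction.

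The constitutive catalytic genes overlapped between the groups. Mean signals of Psmb5 were 10.30 ± 0.16 log2 for KO and 10.13 ± 0.22 for WT (SD over 5 tumours per group), ranging from 10.15 to 10.51 and from 9.95 to 10.45. Its difference was 0.17 log2 with a 95% interval from -0.13 to 0.47 (adjusted p = 0.500, limma). Psmb6 was at 10.83 ± 0.19 and 10.66 ± 0.10, a difference of 0.17 log2 (-0.08 to 0.42, adjusted p = 0.418), and Psmb7 at 10.59 ± 0.16 and 10.57 ± 0.10, a difference of 0.02 (-0.22 to 0.25, adjusted p = 0.941; it was -0.0024 after cyclic loess). These intervals end at 0.47 log2 or below, but they do not show that the genes were equal in both groups.

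Within each array, the log2 difference between an inducible gene and its counterpart was taken relative to its mean in WT tumours. For Psmb8 and Psmb5 it was 2.38, 3.26, 3.60, 3.32 and 2.83 in KO tumours 2, 6, 7, 9 and 11, and between -1.02 and 0.73 in WT tumours. For Psmb9 and Psmb6 the KO tumours lay between 2.17 and 3.60 and the WT tumours between -0.68 and 0.61. For Psmb10 and Psmb7 they lay between 0.83 and 2.07 and between -0.49 and 0.38. In each pair every KO tumour was above every WT tumour. These are descriptions without a test, and they show unequal change within an array and not the make-up of proteasome particles.

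The remaining core genes had small positive differences. All 7 alpha-ring genes, all 4 non-catalytic beta genes and the 3 constitutive catalytic genes had positive values, from 0.02 to 0.40 log2 with a median of 0.16, where 53.8% of all genes tested were positive and the median over all genes was 0.03. Of these 14, Psma5 passed and 3 more had an unadjusted p under 0.05 (28.6% with Psma5, against 22.4% of all genes tested). After cyclic loess Psmb7 was just below 0, and within the upper number range Psma3, Psma7, Psmb4 and Psmb5 had negative values. Signs were read from the same 10 tumours for all genes and are not independent of each other.

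Psma5, an alpha-ring subunit, was at 11.38, 11.41, 11.31, 11.33 and 11.49 log2 in KO tumours 2, 6, 7, 9 and 11 and at 11.24, 10.91, 10.97, 10.92 and 10.88 in WT tumours 1, 3, 8, 12 and 13. The groups were separated by 0.07 log2, WT tumour 1 being the high one of its group. The difference was 0.40 ± 0.10 log2 (SE; adjusted p = 0.0377, limma), and a second bright probe set of the gene differed by 0.34 log2 with overlapping groups. Counting the fit without WT tumour 8 again as that without mouse 82, the call was lost in 17 of 28 alternatives. Among them were mouse means (adjusted p = 0.162, limma), the mean of all probe sets (0.28 log2, adjusted p = 0.0558, limma) and the number range as a covariate (0.27 log2). It was also lost with the 3′ minus 5′ difference as a covariate and without mouse 02 or 04. The same held without any 1 of KO tumours 2, 6 and 11 or WT tumours 3, 8, 12 and 13, where differences of 0.38 to 0.41 log2 remained. With 1 tumour left out, adjusted p ranged from 0.0194 to 0.103 (limma). Within the lower and upper number ranges, each with 1 tumour in a group, the difference was 0.40 and 0.16 log2.

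Psma1 and Psmb1 had no overlap between groups either, Psma1 with 10.53 ± 0.10 log2 for KO and 10.23 ± 0.15 for WT, and Psmb1 with 10.30 ± 0.04 and 10.02 ± 0.12 (SD over 5 tumours per group). Their differences of 0.31 and 0.28 log2 did not pass (adjusted p = 0.105 and 0.0908, limma). Psma6 was also without overlap at a difference of only 0.10 log2. Psma2, Psma3, Psma4 and Psma7 differed by 0.13, 0.02, 0.25 and 0.07 log2, and Psmb2, Psmb3 and Psmb4 by 0.25, 0.11 and 0.16, none past the threshold. Among the other 43 members 5 were higher without overlap and 1, Psme4, was lower without overlap. Of all genes tested, 5.33% were higher and 3.79% lower without overlap (9.12% in all). Psma8 and Psmb11, subunits of testis and thymus particles, fell short of the filter on mean signal (5.82 log2) and were not tested. Their means were 4.95 and 4.36 for KO, and 4.97 and 4.39 for WT.

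No 19S gene passed. The 17 tested had a median difference of -0.01 log2, with 7 positive and 10 negative values and none with an unadjusted p under 0.05 (limma). Among the ATPase genes, which form the unfolding ring, the highest value was 0.12 log2 for Psmc4, beside 0.11 for Psmc2. Of the non-ATPase genes, Psmd8 was highest at 0.22 ± 0.12 log2 (SE; adjusted p = 0.313) and Psmd1 lowest at -0.16 ± 0.09 (adjusted p = 0.362), with Psmd12 at -0.07. The 95% intervals of all 17 lay between -0.37 and 0.49 log2. Psmc1, Psmc3, Psmc5, Psmc6, Psmd2, Psmd3, Psmd4, Psmd6, Psmd7, Psmd11, Psmd13, Psmd14 and the chaperone gene Psmg2, 13 in all, had differences between -0.06 and 0.08 log2 and adjusted p-values of at least 0.748. For Psmg2 this holds on the probe set used (mean 8.35 log2). Its other probe sets, with means of 8.27 and 5.96, differed by 0.23 and 0.49 log2 with overlapping groups.

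**Figure D2:**
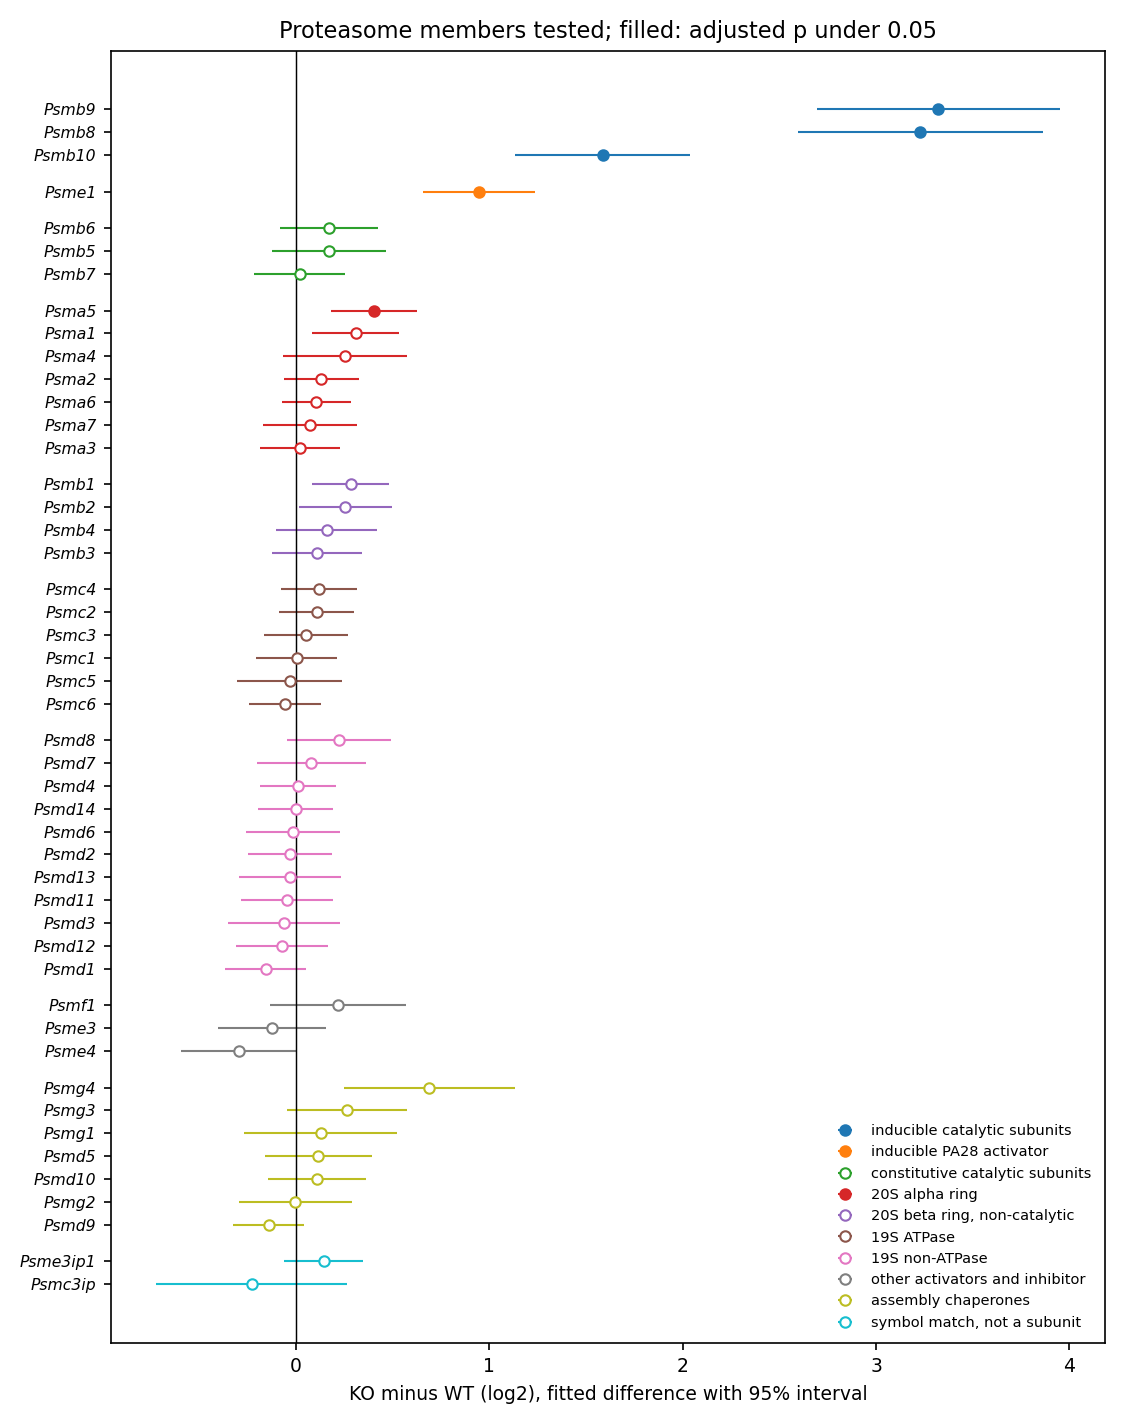
Fitted KO minus WT difference (log2, horizontal axis) with its 95% interval for the 47 members tested, grouped and coloured by role; filled points passed an adjusted p of 0.05. Psmb9, Psmb8, Psmb10 and Psme1 lie at 3.32, 3.23, 1.59 and 0.95, Psma5 is the only other filled point at 0.40, and the 19S genes lie around 0.

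**Figure D3:**
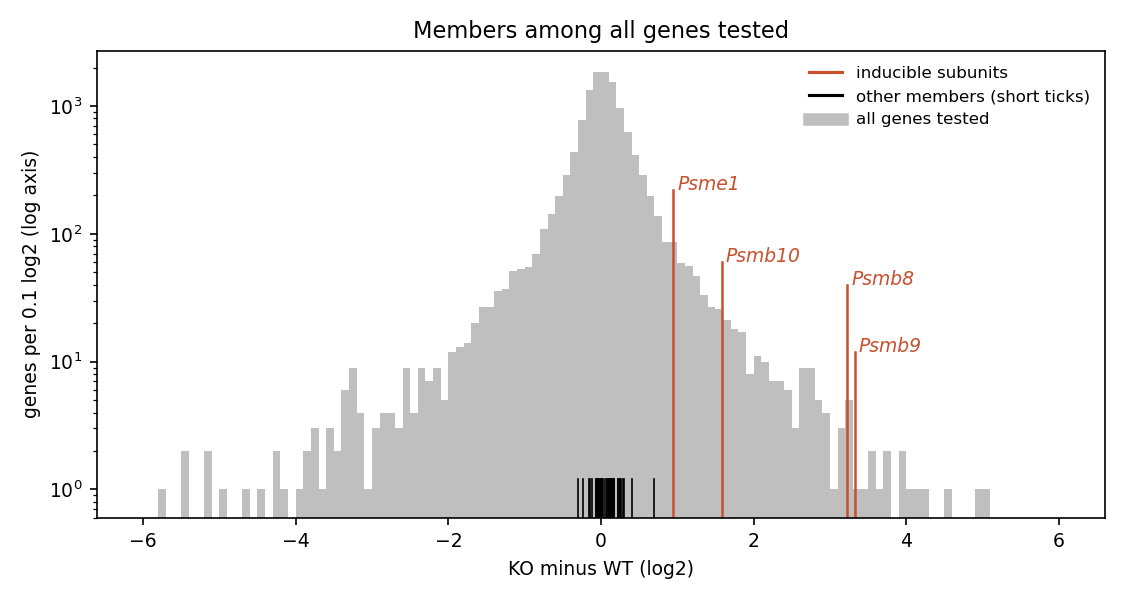
Differences between KO and WT (log2, horizontal axis) of all 12250 genes tested as a histogram with a log count axis, with the inducible genes as labelled red lines and the other members as short black ticks; the height of lines and ticks has no meaning. Psmb8 and Psmb9 lie in the right tail at ranks 18 and 15, and the other 43 members between -0.30 and 0.69.

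The other activators did not pass the test. Psme3, which encodes the nuclear PA28 gamma activator, averaged 12.23 ± 0.14 log2 for KO and 12.36 ± 0.20 for WT (SD over 5 tumours per group), a difference of -0.12 (95% interval -0.40 to 0.16, adjusted p = 0.617, limma). Psme4, which encodes the activator PA200, was at 10.01, 9.92, 10.01, 9.49 and 10.04 log2 in KO tumours 2, 6, 7, 9 and 11 and at 10.22, 10.09, 10.15, 10.06 and 10.44 in WT tumours 1, 3, 8, 12 and 13. All KO tumours were lower on this probe set, yet the difference of -0.30 ± 0.13 log2 (SE) did not pass (adjusted p = 0.222; unadjusted p = 0.0497, limma). Psme4 has 6 probe sets, and on all the others the groups overlapped, with differences of -0.30 to 0.03 log2. The mean of all probe sets gave -0.17 log2 (adjusted p = 0.406, limma). Psme4 was the only member with a negative difference and an unadjusted p under 0.05, and 0 members were lower past the threshold. Psmf1, the inhibitor PI31, differed by 0.22 log2 (adjusted p = 0.463).

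Assembly chaperones bring the rings and the base of the cap together before they leave the particle. None of 7 passed. Psmg4 had the largest difference among members outside the inducible genes, with 7.5002, 7.498, 7.781, 7.513 and 7.503 log2 in KO tumours 2, 6, 7, 9 and 11 and 7.18, 6.93, 7.36, 6.43 and 6.37 in WT tumours 1, 3, 8, 12 and 13. KO tumours were nearly level apart from tumour 7, and WT tumours were spread over 0.98 log2 below them. The difference was 0.69 ± 0.20 log2 (SE; adjusted p = 0.0676, limma), and it passed without WT tumour 8, the only tumour of mouse 82 (0.83 log2, adjusted p = 0.0291; 0.0291 to 0.661 over the alternatives). It also passed with no block for the mouse (0.70 log2, adjusted p = 0.0451, limma), where 6 members were higher. Its second probe set, below the level filter, differed by 0.14 log2. Psmg3, Psmg1, Psmd5, Psmd10 and Psmd9 differed by 0.26, 0.13, 0.12, 0.11 and -0.14 log2.

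Psmc3ip, a recombination factor, differed by -0.23 ± 0.22 log2 and Psme3ip1 by 0.14 ± 0.09 (SE), neither past the threshold (adjusted p = 0.597 and 0.404, limma). Partners of the proteasome outside the symbol rule, among them the maturation factor Pomp, the deubiquitinase Usp14, the unfoldase Vcp and the transcription factor Nfe2l1 that drives proteasome genes, were read as a list. Of 14 tested, 0 passed in either direction, 1 had an unadjusted p under 0.05, Nfe2l2 at -0.39 log2, and the median difference was 0.03 (limma). Nfe2l2, a regulator of the antioxidant response, passed as lower with the number range as a covariate (-0.64 log2, adjusted p = 0.0291) and with the mean of all probe sets (-0.46, 0.0353), its adjusted p reaching 0.745 over the alternatives.

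**Figure D4:**
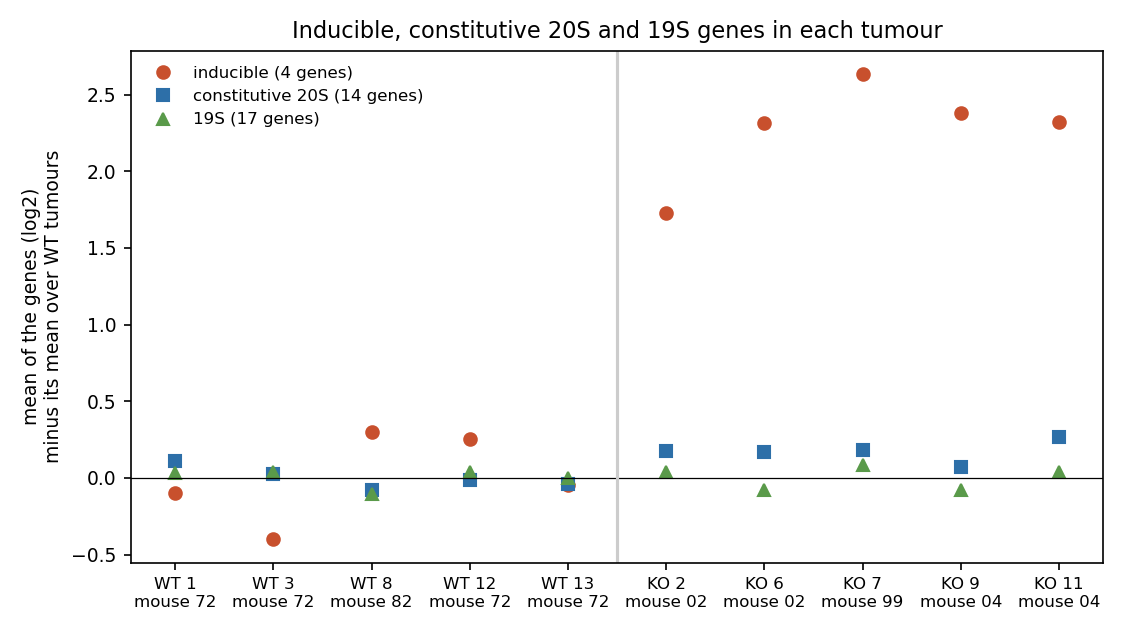
Mean log2 signal of the 4 inducible, 14 constitutive 20S and 17 19S genes in each tumour, minus the same mean over WT tumours (vertical axis); tumours and their mice are on the horizontal axis, WT to the left. Inducible means reach 1.73 to 2.63 in KO tumours. Constitutive 20S means lie between 0.07 and 0.26 there and between -0.08 and 0.11 in WT tumours, so the groups overlap. The 19S means stay within 0.11 of 0 in every tumour.

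Several genes that act with the immunoproteasome were higher in the same tumours. Of 10 genes for class I peptide supply and loading, 7 rose and 3 did not pass, with a median difference of 1.04 log2. Among all 12250 genes tested, 4.16% rose. They included Nlrc5, the class I transactivator, at 3.92 ± 0.39 log2 (SE), Tap1 at 2.59 ± 0.26, the tapasin-related gene Tapbpl at 1.30 ± 0.16 and the peptide-trimming enzyme gene Erap1 at 1.21 ± 0.15 (adjusted p up to 0.00151, limma). Of 18 genes of interferon signalling and response, 11 rose and 7 did not pass, with a median of 1.72 log2 over the 18 and a lowest difference of -0.10. Of the 11, 2 had WT means below the level filter. The transcription factor gene Irf1 was higher by 1.76 ± 0.17 log2, the chemokine gene Cxcl9 by 5.03 ± 0.56 from a WT mean of 4.79 that lay below the level filter, and the GTPase genes Gbp3 and Gbp2 by 3.90 ± 0.54 and 4.27 ± 0.65 (SE, adjusted p up to 0.00370, limma). Gbp2 did not pass over 1 mean per mouse (3.80 log2, adjusted p = 0.0671; 0.00233 to 0.221 over the alternatives) or without mouse 72 (2.75 log2, 0.156). These lists were chosen with earlier results of the arrays known and are no independent support.

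Both KO tumours of mouse 02 were low in the interferon list, with list means 1.38 and 1.25 log2 above the WT mean in tumours 2 and 6, against 2.23 to 2.45 in the other 3. The mean of the inducible proteasome genes did not split in that way: tumour 6 stood at 2.32 log2, level with tumour 11, and tumour 2 alone was low. Genes within the interferon list differed in this. Irf1 was at 11.59 and 12.10 log2 in KO tumours 2 and 6 and at 12.19 to 12.26 in the others. Cxcl9 was low in both, at 8.88 and 9.04 against 10.32 to 10.58. Ifit1 was lower in tumour 6 (7.03) than in tumour 2 (9.19). Whether the inducible genes depart from the interferon response was not tested.

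In the order of genes, Psmb9, Tap1, Psmb8 and Tap2 are neighbours in the MHC class II region, and all 4 rose, Tap2 by 0.999 ± 0.18 log2 (SE; adjusted p = 0.00825, limma). Tap2 did not pass over 1 mean per mouse (0.988 log2, adjusted p = 0.0867; 0.00360 to 0.302 over the alternatives), within either number range or without mouse 72. Psmb10 has Ctrl and Lcat as neighbours, of which Ctrl, a chymotrypsin-like protease gene, differed by 0.74 log2 without passing (adjusted p = 0.0647) and Lcat was not tested. Ctrl did pass with no block (adjusted p = 0.0438), with the number range as a covariate (1.03 log2, 0.0217) and without WT tumour 8 (0.90 log2, 0.0201), and its adjusted p reached 0.8501 over the alternatives (limma). Emc9, which lies between Psme1 and Psme2, differed by -0.10 log2 (adjusted p = 0.562).

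Immune cells often carry immunoproteasomes, and several of their markers were higher in the same tumours. Of 16 lymphocyte markers 14 were on the array, 10 were tested and 8 rose. Of all genes tested, 4.16% were higher and 2.93% lower past the threshold. Of these 8, 6 had WT means below the level filter and were tested only because of their KO signal, so the count is no measure of how many markers differ. The mean of the 14 ranged from 6.41 to 7.18 log2 in KO and from 5.31 to 5.75 in WT tumours. Their summed signal was 12.25 to 12.73 and 9.93 to 10.86 log2, and in KO tumours most of it came from the plasma cell gene Jchain, at 11.89 to 12.40 log2 in KO and 8.40 to 10.25 in WT tumours. The T cell receptor complex genes Cd3d and Cd3g averaged 6.25 and 6.99 log2 for KO, and 5.67 and 5.38 for WT, both WT means lying below the level filter; Cd3g differed by 1.63 log2 (adjusted p = 0.00301, and 0.00336 with no level filter, limma). Of 6 markers shared by leukocytes 1 rose, with summed signals of 12.62 to 13.04 log2 in KO and 11.66 to 12.69 in WT; Ptprc, which encodes CD45, was at 9.56 and 8.63 and did not pass (adjusted p = 0.0671). It did pass over 1 mean per mouse (1.01 log2, adjusted p = 0.0427; 0.0317 to 0.663 over the alternatives), with no block (0.0470), and without WT tumour 3 (0.72 log2, 0.0422), WT tumour 12 (1.09 log2, 0.0317) or mouse 72 (1.21 log2, 0.0318; limma). Of 11 myeloid markers tested 1 rose, with summed signals of 13.11 to 13.35 and 12.50 to 13.82 log2. No colon epithelium marker passed among 11, with summed signals of 15.99 to 16.13 and 15.55 to 16.22 log2. No fibroblast marker passed among 9 tested. Summed signals of the 11 fibroblast markers on the array were 13.06 to 13.97 log2 in KO and 13.14 to 14.07 in WT. Counts of 0 or 1 in lists this short give no contrast between cell types. No marker value was listed at 0, RMA signals having no true zero. The part of these cells in the differences of the inducible genes was not tested.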

How the data were processed

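Per the submitters' processing notes, the authors made the deposited values with RMA (version not given), and the values are log2 signals per probe set, taken as deposited. Of 45101 probe sets, 34945 had 1 gene symbol in the platform annotation, 932 several and 9160 none, with 64 controls apart. Symbols of 34754 probe sets were updated by Entrez identifier through a RefSeq table of GRCm38.p6, the study naming no build. Of 18193 genes, the 12250 whose mean signal reached the 40th percentile of probe set means were tested. KO was compared with WT with limma 3.58.1 (R 4.3.3, statmod 1.5.0; lmFit and eBayes) and the mouse as a random block (consensus correlation 0.0586), so fitted differences can depart slightly from differences of group means. P-values were adjusted by Benjamini-Hochberg over all genes tested, at 0.05. The fit was tested on simulated data. Members, gene lists and alternatives were chosen with earlier results of these data known. Values are given in full for the inducible genes, their counterparts and, in each role, the members past the threshold or else the one with the smallest p; the other members are given in brief. The class I and interferon lists are shown by the 4 smallest p-values past the threshold. Cell type lists are shown by counts and summed signals, with Cd3d, Cd3g and Ptprc from the start of their lists (Cd3e was not tested). Psmg4, Psme4, Psma1 and Psmb1 are given with more values, and Jchain, neighbours and Nfe2l2 are named, by choice after their values were seen. The labels speak of samples pooled per mouse although several arrays are listed per mouse; arrays were taken as single tumours. Precision is limited by 10 arrays from 5 mice.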

Additional observations from a re-analysis of the deposited data

Results flagged for a closer look

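In 6 of the 94 groups of 5 tumours (47 members, KO and WT), 1 tumour stood apart from the others by more than 0.71 of the group's range, where chance gives about 1 group in 20. Psmb9 was lowest in KO tumour 2, at 11.42 log2 against 12.25 in the next. Psma5 was highest in WT tumour 1, at 11.24 against 10.97. Psmg4 was highest in KO tumour 7, at 7.78 against 7.51, and Psme4 was lowest in KO tumour 9, at 9.49 against 9.92. Psmb3 was highest in WT tumour 12, at 11.45 against 11.14 log2, and Psmc3 was lowest in WT tumour 8, at 10.52 against 10.74.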

How the results depend on the processing

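Psmb8, Psmb9, Psmb10 and Psme1 kept a positive difference under all 28 alternatives. Within the lower number range 0 members passed, none of the inducible genes among them, with an inducible median of 2.77 log2; within the upper range 3 members passed (6.02% of all genes), and the median of the other members was -0.027. Without mouse 72, 2 members passed, both inducible (2.35% of all genes), and the other members had a median of 0.19 log2. Averaging all probe sets of a gene gave an inducible median of 1.93. These fits hold fewer tumours or other probe sets, and the cause was not tested further. Their shares of all genes count calls in either direction. Leaving out 1 tumour gave 4 to 5 members and 4 inducible genes past the threshold, with medians of 2.30 to 2.55 for inducible and 0.04 to 0.11 log2 for other members.

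Over 47 members and 28 alternatives, signs changed in 118 of 1316 comparisons, in 24 members, none of them among the 5 past the threshold. The 28 are not all distinct. The fit without WT tumour 8 is also that without mouse 82, and the fit without KO tumour 7 that without mouse 99. An alternative that changed only the variance estimate left the differences as they were, so no sign could change there. The members below are those of the 24 given with values of their own. Psmb7 was -0.019 with the number range as a covariate, -0.10 in the lower range, -0.0024 with cyclic loess, -0.056 without mouse 02 and -0.017 without mouse 82, and -0.028 to 0.066 with 1 tumour left out. Psma3 was -0.0041 in the lower and -0.027 in the upper range, -0.027 without mouse 04 and -0.032 without mouse 82, and -0.032 to 0.059 with 1 tumour left out. Psmd10 was -0.039 with the covariate, -0.074 in the lower and -0.027 in the upper range. In the lower range Psmd1 was 0.0037 and Psmc3ip 0.17. In the upper range Psma7, Psmb4, Psmd5, Psmg1 and Psmb5 were -0.18, -0.10, -0.053, -0.28 and -0.14, and Psme3 0.027. Without mouse 72 Psme3 was 0.0075 and Psmc3ip 0.24. No paired analysis was possible because KO and WT tumours share no number or mouse.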
